A study of Gossypium hirsutum with 9 samples.

Results

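Very-long-chain fatty acid elongation was examined in fibres of upland cotton (Gossypium hirsutum), through the 77 genes, of 70478 in the deposited table, whose bracketed symbol names an enzyme of the elongation cycle. The symbols sought were those of the condensing enzymes (KCS followed by a number, CUT1, CER6, FDH and FAE1), of the ketoacyl-CoA reductases (KCR1, KCR2), of the dehydratases (PAS2, HACD) and of the enoyl-CoA reductases (ECR, CER10). Total RNA was sequenced from fibres, which are elongated single cells of the seed epidermis, taken from field-grown plants at 9 days post anthesis. In the RNAi group, labelled GhWRKY16-RNAi, a gene of the WRKY family of transcription factors was targeted by RNA interference, and replicates 2 to 6 were analysed (n = 5). The WT group was wild type and held replicates 1 to 3 (n = 3). RNAi replicate 1 was not analysed here. The labels give neither the promoter of the construct nor the number of transgenic lines nor the plants behind each replicate, so that p-values cover only the spread between libraries, part of which may be technical. No gene in the table carries the symbol WRKY16, and the silencing itself was not measured here.

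Fatty acids longer than those made in plastids are built on the endoplasmic reticulum by a cycle of 4 enzymes. A ketoacyl-CoA synthase (KCS) condenses an acyl-CoA with malonyl-CoA, a ketoacyl-CoA reductase (KCR) reduces the product, a dehydratase removes water, and an enoyl-CoA reductase (ECR) completes the round. The KCS family is large and sets the chain length, whereas the other steps are served by few genes. The products go into cuticular wax, suberin, sphingolipids and membrane phospholipids, and in cotton saturated very-long-chain fatty acids are known to promote fibre elongation.

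Values are FPKM (fragments per kilobase of transcript, scaled to the mapped fragments of the library), so that levels of different genes can be set side by side. The libraries differed in depth, which was read from the steps between low values. Relative to WT replicate 1 it was lowest in RNAi replicate 4, at 0.366, and highest in RNAi replicate 5, at 2.19. The absolute number of reads is unknown, and no counting interval is given. The fibre markers, led by genes with the symbol E6 (a protein abundant in elongating fibres), summed to between 63417 and 77275 FPKM in RNAi libraries and to between 70319.9 and 74300 FPKM in WT libraries. Of the 100 tested genes of the fibre list none passed the test. The log2 fold change, RNAi minus WT, was positive in 84 and negative in 16, with a median of 0.31. Over all tested genes 46.4% were positive and 53.6% negative, with a median of -0.02. An unadjusted p under 0.05 was reached by 12, all of them higher in RNAi, against 5.86% of all tested genes. RNAi replicate 5 stood apart in the secondary wall cellulose synthase CESA8, at 102 FPKM summed over its genes, against 1.08 to 18.9 FPKM in the other RNAi libraries and 1.23 to 5.65 FPKM in WT libraries. The same library was the highest of the 8 in CESA7, CESA4 and FLA12 of the fibre list, at sums of 12.8, 11.9 and 19.2 FPKM. The other RNAi libraries had 0.270 to 1.34, 1.60 to 2.88 and 0.0977 to 1.87 FPKM. WT libraries had 0.176 to 0.242, 1.97 to 2.55 and 0.607 to 0.948 FPKM, so that for CESA7 every RNAi library lay above every WT library. The green tissue list of 121 genes summed to 435 to 532 FPKM in RNAi libraries and 484 to 601 FPKM in WT libraries. None of its 37 tested genes passed, with 16 of positive and 21 of negative log2 fold change. An unadjusted p under 0.05 was reached by 8 (21.6%, against 5.86% of all tested genes), of which 6 were higher and 2 lower in RNAi. The groups did not overlap in 3 genes with RNAi above and 3 with RNAi below WT, against 1.72% and 2.35% of all tested genes. Most of the green sum came from PSAP, at 242 to 333 FPKM in RNAi libraries and 285 to 384 FPKM in WT libraries. The genes of the Rubisco small subunit (RBCS) summed to 7.80 to 12.2 FPKM in RNAi libraries and 2.02 to 4.40 FPKM in WT libraries. The sums of CAB21, CAB6A, CAB8, LHCB5, PSAL, PSBO and PSBY also lay higher in every RNAi library than in any WT library. CAB21 reached 13.8 FPKM, and the others were near the floor, at most 2.87 FPKM in any library. The share of all symbol sums that did not overlap was not taken. Symbols that overlapped went both ways. Among them PSAO (means of 22.2 FPKM in RNAi and 30.0 FPKM in WT), PSBR (10.5 and 14.6 FPKM), PSAG and CAB7 had lower means in RNAi. Only PSAN, of photosystem I, lay lower in every RNAi library, at 53.0 to 61.8 FPKM in RNAi libraries and 66.8 to 78.0 FPKM in WT libraries. The part of these differences in any result was not tested. The seed list of 27 genes summed to 175 to 529 FPKM in RNAi libraries and 255 to 434 FPKM in WT libraries, most of it from LEA5-A, a late embryogenesis abundant protein, at 139.9 to 436 FPKM in RNAi libraries and 214 to 374 FPKM in WT libraries. The storage protein genes LEGA and LEGB were listed at 0 in every library.

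The elongation genes were expressed at high levels in both groups. Together they reached 9576, 9919.6, 9220.3, 9958 and 10566 FPKM in RNAi replicates 2 to 6, and 10068, 10484 and 9059 FPKM in WT replicates 1 to 3. The 2 groups overlapped, and the mean was 9848 ± 500.3 FPKM in RNAi (SD, n = 5) and 9870.3 ± 733 FPKM in WT (SD, n = 3), a ratio of 0.998 with a spread of 0.0898 (1 SD, from the spread of both groups). This was 0.719% to 0.823% of all FPKM in RNAi libraries and 0.709% to 0.842% in WT libraries. Of the 77 genes, 50 reached at least 1 FPKM in at least 3 libraries and were tested, 16 lay below that filter and 11 were listed at 0 in every library. Of the 50 tested genes, 19 (38.0%) averaged at least 100 FPKM over all libraries, against 5.89% of the 34051 genes tested in the whole table. In bulk RNA, fewer cells and less RNA per cell cannot be told apart.

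CUT1 was the symbol with the largest share of the expression. Its 7 genes held 41.7% ± 1.35 of the summed elongation FPKM in RNAi (SD, n = 5) and 42.7% ± 0.579 in WT (SD, n = 3), and the share lay between 39.7% and 43.4% in all 8 libraries. KCS2 followed with 19.4% ± 3.88 in RNAi and 16.5% ± 1.72 in WT, then KCR1 with 16.4% ± 2.02 in RNAi and 18.5% ± 0.751 in WT (SD, n = 5 and 3). FDH held 5.48% ± 0.793 in RNAi and 5.71% ± 0.505 in WT, and ECR 5.09% ± 0.337 in RNAi and 5.43% ± 0.919 in WT. The other 10 symbols each held at most 4.42% of the sum in any library. No gene had the symbols CER6, CER10 or FAE1.

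**Figure D1:**
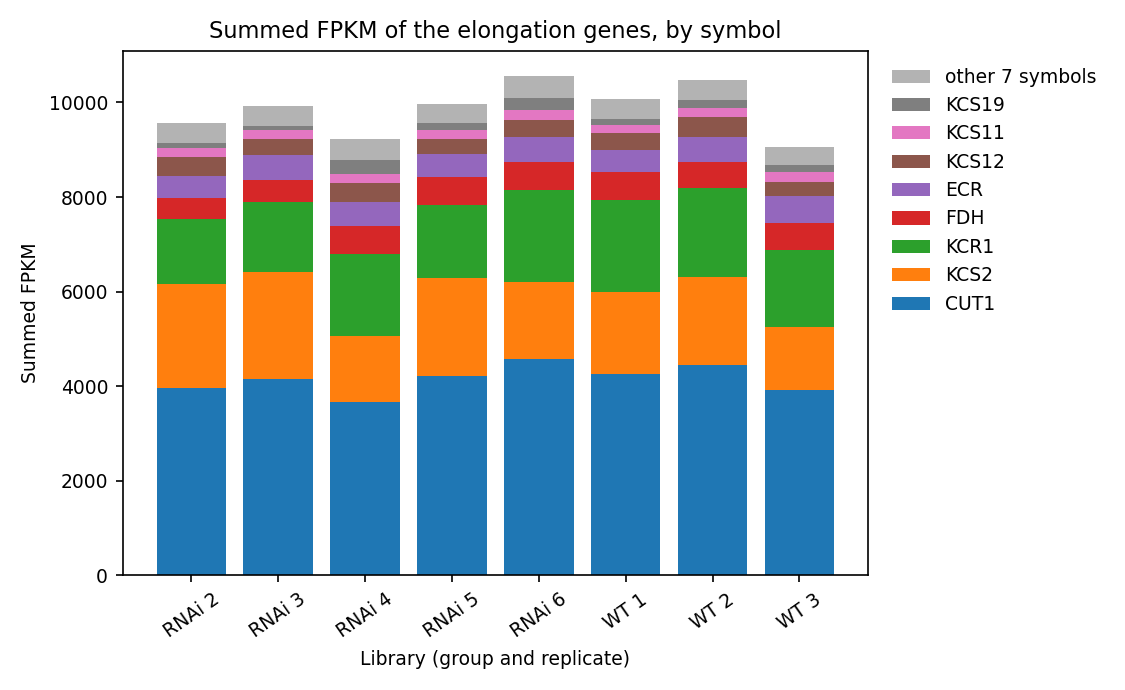
Stacked bars of the summed FPKM of the elongation genes in each library, RNAi replicates 2 to 6 on the left and WT replicates 1 to 3 on the right, coloured by symbol. The CUT1 segment is the tallest in every library (3665 to 4583 FPKM in RNAi, 3925 to 4442 FPKM in WT), while the KCS2 segment ranges from 1399 to 2271 FPKM in RNAi.

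None of the 50 tested genes passed the threshold of an adjusted p under 0.05 between RNAi and WT (limma on log2(FPKM + 1), Benjamini-Hochberg adjusted over all 34051 genes), in a comparison that called 0.167% of all tested genes (0.0793% higher and 0.0881% lower in RNAi). The log2 fold change, RNAi minus WT, was positive in 26 and negative in 24 of them, with a median of 0.02, whereas it was positive in 46.4% and negative in 53.6% of all tested genes, whose median was -0.02. An unadjusted p under 0.05 was reached by 6 of the 50, of which 2 were higher and 4 lower in RNAi, against 5.86% of all tested genes. The lowest adjusted p among the 50 was 0.154. Groups did not overlap in 4 of the 50 genes, against 4.07% of all tested genes. In 3 of them RNAi lay below WT, which 2.35% of all tested genes did, and in 1 RNAi lay above WT, as in 1.72% of all tested genes.

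**Figure D2:**
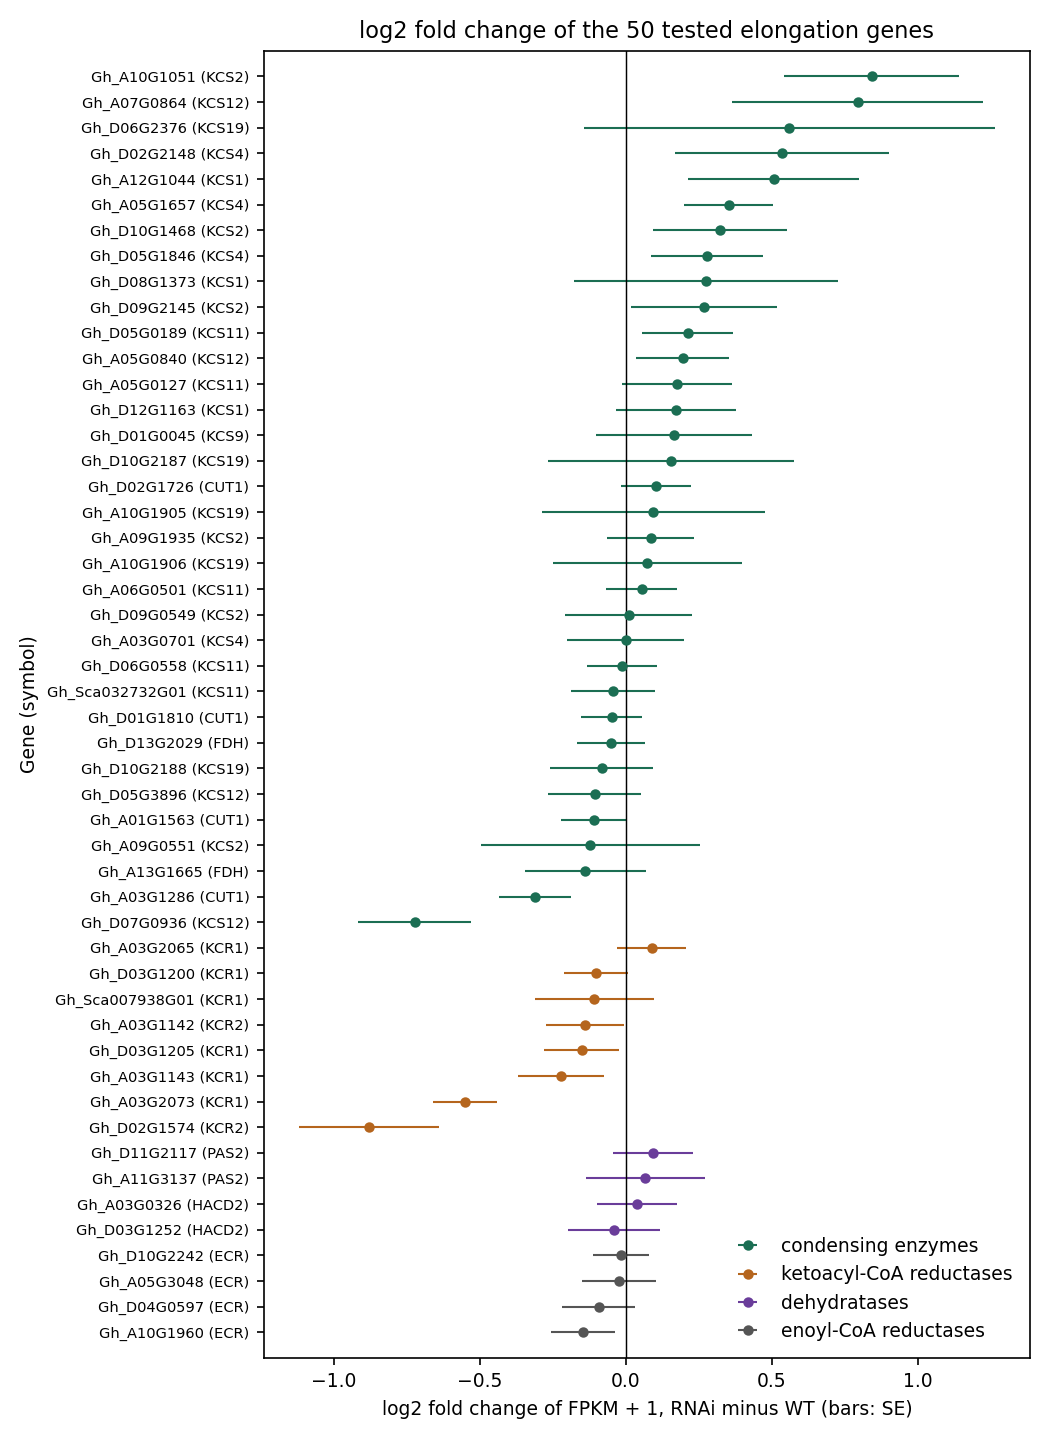
The log2 fold change of FPKM + 1, RNAi minus WT, of the 50 tested elongation genes, ordered within each enzyme role; points are limma estimates and bars their SE. Values run from -0.88 for the KCR2 gene Gh_D02G1574 to 0.84 for the KCS2 gene Gh_A10G1051, and 7 of the 8 ketoacyl-CoA reductase genes lie left of 0.

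Of the 34 tested condensing enzymes 22 had a positive log2 fold change (against 46.4% of all tested genes), with a median of 0.10, and 4 had an unadjusted p under 0.05 (against 5.86% of all tested genes). Among them, CUT1 (also called CER6 in Arabidopsis, where it makes the precursors of stem wax) had 4 expressed genes, which included the most abundant member of the whole list. Gh_D02G1726 (CUT1) had 1556, 1603, 1494, 1774 and 1822 FPKM in RNAi replicates 2 to 6, against 1625, 1716 and 1289 FPKM in WT replicates 1 to 3. Its mean over all libraries ranked 67 among the 70478 genes of the table. The groups overlapped, with WT replicate 3 the lowest library (log2 fold change 0.10 ± 0.12 SE, limma adjusted p = 0.908).

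Gh_A01G1563 (CUT1) had 1024, 1224, 978, 1098 and 1293 FPKM in RNAi, against 1173, 1193 and 1252 FPKM in WT. Gh_D01G1810 (CUT1) had 1041, 1003, 826, 1032 and 1044 FPKM in RNAi, against 984, 1078 and 999 FPKM in WT. Both overlapped between the groups, and RNAi replicate 4 was the lowest library for each (limma adjusted p = 0.900 and 0.952). Gh_A03G1286 (CUT1) was less abundant, at 337, 320.4, 367, 319 and 424 FPKM in RNAi, against 475, 455 and 385 FPKM in WT. RNAi replicate 6 alone lay within the range of WT, and the log2 fold change of -0.31 ± 0.12 (SE) had a limma adjusted p of 0.839 (unadjusted p = 0.0302). The other 3 CUT1 genes, on A09, A11 and D11 by their identifiers, were listed at 0 in every library.

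KCS2, named after an Arabidopsis enzyme of suberin and root very-long-chain fatty acids, had 6 tested genes on A09, D09, A10 and D10. Gh_A09G1935 (KCS2) was the highest, at 1046, 1194, 788, 1056 and 919.8 FPKM in RNAi, against 1002, 1037 and 784 FPKM in WT. Gh_D09G2145 (KCS2) had 728, 805, 374, 683 and 474 FPKM in RNAi, against 512, 577 and 396 FPKM in WT. In both genes RNAi replicates 2, 3 and 5 lay above every WT library and RNAi replicates 4 and 6 did not, and neither passed (limma adjusted p = 0.941 and 0.895).

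Gh_A10G1051 (KCS2) had 228, 120.3, 113, 167 and 116 FPKM in RNAi, against 82.5, 119 and 50.8 FPKM in WT. Its log2 fold change of 0.84 ± 0.30 (SE) was the largest positive one of the list at a pseudocount of 1 (at 0.1 or 0.01 that of Gh_A07G0864, KCS12, was larger), but WT replicate 2 lay within the range of RNAi and the gene did not pass (limma adjusted p = 0.794, unadjusted p = 0.0187). Without WT replicate 3 its log2 fold change was 0.52. Gh_D10G1468 (KCS2) had 179.6, 143, 101, 137 and 96.6 FPKM in RNAi, against 116, 123 and 74.7 FPKM in WT (log2 fold change 0.32 ± 0.23 SE). This gene was named after its values were seen. The remaining KCS2 genes, Gh_D09G0549 and Gh_A09G0551, averaged 11.2 and 4.03 FPKM in RNAi and 10.8 and 3.92 FPKM in WT.

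KCS12 had 4 tested genes of unlike level and direction. Gh_A05G0840 (KCS12) had 315, 264, 336, 241 and 294 FPKM in RNAi, against 245, 319 and 204 FPKM in WT (log2 fold change 0.19 ± 0.16 SE). Gh_D07G0936 (KCS12) had 24.3, 34.1, 24.1, 28.9 and 19.3 FPKM in RNAi, against 40.1, 54.9 and 36.2 FPKM in WT. All 5 RNAi libraries lay below all 3 WT libraries, with a log2 fold change of -0.72 ± 0.19 (SE), a limma adjusted p of 0.490 and an unadjusted p of 0.00403. Gh_A07G0864 (KCS12) was low, at 9.91, 1.89, 2.14, 2.93 and 3.87 FPKM in RNAi, against 1.12, 3.26 and 0.970 FPKM in WT. RNAi replicate 2 stood apart as the highest library, and the gene did not pass (limma adjusted p = 0.864), at a log2 fold change of 0.79 ± 0.43 (SE).

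Of the KCS4 genes, Gh_A05G1657 (KCS4) had 23.2, 26.96, 21.1, 21.4 and 21.5 FPKM in RNAi, against 19.2, 20.8 and 13.7 FPKM in WT. It was the 1 tested elongation gene with every RNAi library above every WT library (lowest 21.1 FPKM in RNAi, highest 20.8 FPKM in WT), at a log2 fold change of 0.35 ± 0.15 (SE; limma adjusted p = 0.840, unadjusted p = 0.0430). Gh_D05G1846 (KCS4) had 19.99, 20.7, 15.7, 18.03 and 15.4 FPKM in RNAi, against 16.3, 18.5 and 10.1 FPKM in WT, with overlap (log2 fold change 0.28 ± 0.19 SE). Gh_A12G1044 (KCS1, named after an Arabidopsis wax enzyme) had 33.9, 20.4, 17.4, 14.7 and 22.5 FPKM in RNAi, against 17.9, 18.9 and 8.80 FPKM in WT. WT replicate 3 was the lowest library for all 3 genes. Without it the log2 fold change was 0.18 for Gh_A05G1657, 0.036 for Gh_D05G1846 and 0.18 for Gh_A12G1044 (0.51 with all libraries), and likewise 0.043 for KCS12 Gh_A05G0840.

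KCS11 and KCS9 were of lower level. The 7 KCS11 genes summed to 183, 182, 180.0, 190.2 and 208 FPKM in RNAi, against 178, 177 and 208 FPKM in WT, and were led by Gh_Sca032732G01 (KCS11), at 67.2 to 102 FPKM in RNAi and 72.8 to 89.5 FPKM in WT. KCS9 summed to 9.33 to 22.2 FPKM in RNAi, highest in RNAi replicate 4, and to 10.9 to 12.1 FPKM in WT. The groups overlapped for both symbols.

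**Figure D3:**
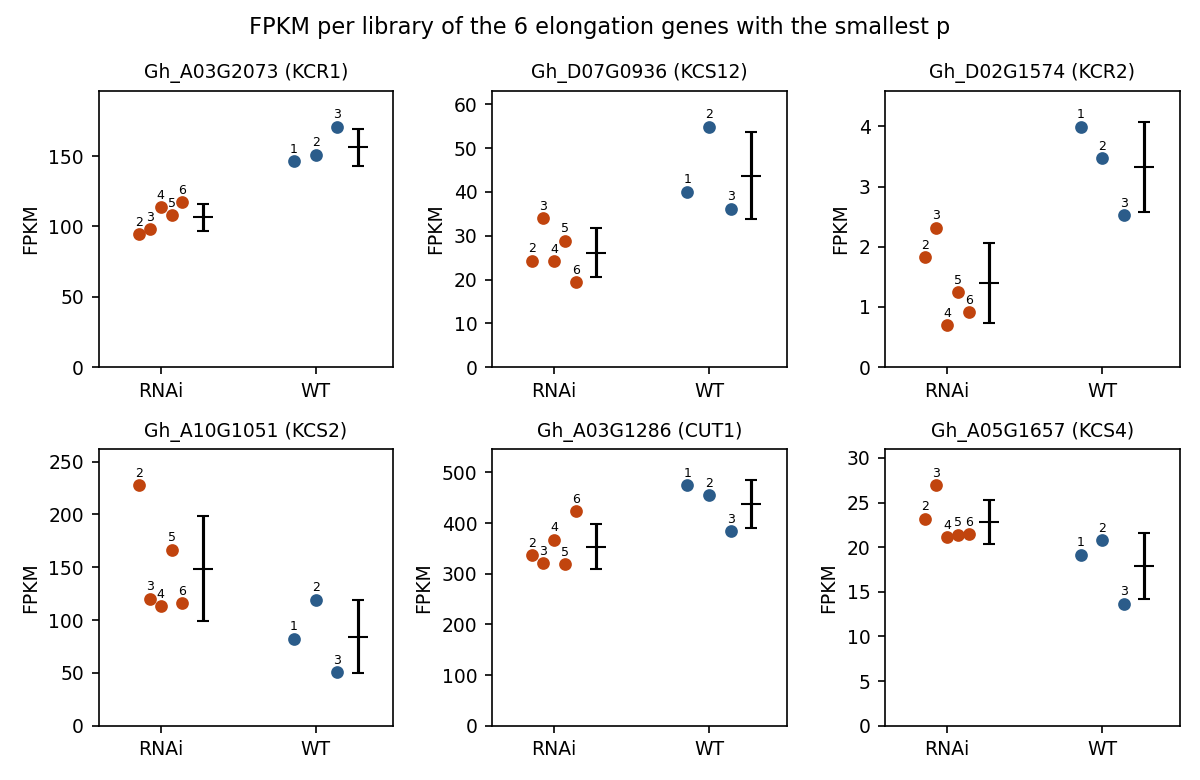
FPKM per library (points, labelled with the replicate number) and mean with SD (black) of the 6 elongation genes with the smallest unadjusted p, RNAi on the left and WT on the right of each panel, each axis starting at 0. The groups do not overlap for KCR1 Gh_A03G2073, KCS12 Gh_D07G0936, KCR2 Gh_D02G1574 and KCS4 Gh_A05G1657, and none of the 6 passed after adjustment over all genes.

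FDH is the symbol of FIDDLEHEAD, a condensing enzyme that keeps the epidermis of Arabidopsis organs from fusing, but formate dehydrogenase has the same abbreviation, and the table does not say which is meant. Gh_D13G2029 (FDH) had 347, 374, 422, 476 and 428 FPKM in RNAi, against 451, 406 and 409 FPKM in WT (log2 fold change -0.05 ± 0.12 SE, limma adjusted p = 0.955). Gh_A13G1665 (FDH) ranged from 93.9 to 169.7 FPKM in RNAi and from 133 to 146 FPKM in WT. Without the 5 FDH genes, CUT1 carried 44.6% of the summed elongation FPKM, as a mean over the 8 libraries, against 42.1% with them.

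No gene of the second step of the cycle passed. Of the 8 ketoacyl-CoA reductase genes, all of them tested, 7 had a negative log2 fold change, with a median of -0.15 and 2 at an unadjusted p under 0.05. Over all tested genes 53.6% were negative and 5.86% had an unadjusted p under 0.05. The reductase genes summed to 1509, 1647, 1875, 1704 and 2134 FPKM in RNAi, against 2132, 2053 and 1808 FPKM in WT, so that the groups overlapped. In Arabidopsis KCR1 is the active reductase of the cycle, and KCR2 does not replace it.

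Gh_A03G1143 (KCR1) carried most of this step, at 833, 908, 1034, 944 and 1244 FPKM in RNAi, against 1277, 1232 and 959 FPKM in WT (log2 fold change -0.22 ± 0.15 SE, limma adjusted p = 0.877). Gh_A03G2065 (KCR1) had 286, 293, 376, 313 and 376 FPKM in RNAi, against 316, 300.0 and 305 FPKM in WT (log2 fold change 0.09 ± 0.12 SE). Both overlapped between the groups, and RNAi replicates 4 and 6 were the highest RNAi libraries for each.

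Gh_A03G2073 (KCR1) had the lowest p of the whole list. It stood at 94.5, 98.0, 114, 108 and 117 FPKM in RNAi, against 146, 151 and 171 FPKM in WT. Every RNAi library lay below every WT library, with means of 106 ± 9.87 FPKM in RNAi (SD, n = 5) and 156 ± 13.1 FPKM in WT (SD, n = 3). At -0.55 ± 0.11 (SE) on the log2 scale, the difference had an unadjusted p of 0.000529 and a limma adjusted p of 0.154. Over 17 alternatives the adjusted p lay between 0.0673, with array weights, and 0.662, without WT replicate 3. The gene held 1.27% of the summed elongation FPKM.

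Gh_D02G1574 (KCR2) was close to the detection filter, at 1.83, 2.32, 0.697, 1.24 and 0.916 FPKM in RNAi, against 3.995, 3.47 and 2.52 FPKM in WT. The groups did not overlap, and the log2 fold change of -0.88 ± 0.24 (SE) had a limma adjusted p of 0.510 and an unadjusted p of 0.00448. The lowest value was in RNAi replicate 4, the shallowest library. The other KCR2 gene, Gh_A03G1142, named after its values were seen, directly precedes KCR1 Gh_A03G1143 in identifier number and was far more abundant. It had 121, 169, 149, 152 and 182 FPKM in RNAi, against 179.5, 163 and 165 FPKM in WT, with overlap. The remaining KCR1 genes, Gh_D03G1200, Gh_D03G1205 and Gh_Sca007938G01, averaged 129, 53.2 and 8.04 FPKM in RNAi and 138, 59.5 and 8.95 FPKM in WT, and overlapped too.

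The dehydratase step had the least transcript, with a sum of 134 ± 17.2 FPKM in RNAi (SD, n = 5) and 128 ± 10.9 FPKM in WT (SD, n = 3). Gh_D11G2117 (PAS2, a dehydratase that Arabidopsis needs for normal cell division) had 78.2, 52.3, 66.1, 58.3 and 65.4 FPKM in RNAi, against 55.6, 65.8 and 57.5 FPKM in WT. Gh_A11G3137 (PAS2) had 28.4, 20.7, 40.4, 23.8 and 30.9 FPKM in RNAi, against 22.7, 31.2 and 27.2 FPKM in WT. The groups overlapped for both (limma adjusted p = 0.929 and 0.966). The 2 HACD2 genes, with the symbol of an animal dehydratase, ranged from 11.0 to 32.3 FPKM in RNAi and from 12.1 to 29.8 FPKM in WT.

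The enoyl-CoA reductase step rested on a pair of ECR genes of chromosomes A10 and D10. Gh_A10G1960 (ECR) had 222, 259, 277, 245 and 269 FPKM in RNAi, against 255, 275 and 316 FPKM in WT (log2 fold change -0.15 ± 0.11 SE, limma adjusted p = 0.882). Gh_D10G2242 (ECR) had 210.1, 234, 218, 219 and 232 FPKM in RNAi, against 204, 225 and 247 FPKM in WT (log2 fold change -0.02 ± 0.09 SE, limma adjusted p = 0.979). The groups overlapped for both genes. The other ECR genes, Gh_A05G3048 and Gh_D04G0597, averaged 15.0 and 8.38 FPKM in RNAi and 15.2 and 9.03 FPKM in WT.

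Libraries of the same group differed among themselves, as KCS19 and KCS2 show. KCS19, with 12 genes of which 5 were tested, summed to 112, 93.1, 295, 156 and 252 FPKM in RNAi, against 124, 176 and 155 FPKM in WT. Most of it came from Gh_A10G1905 (KCS19), at 78.9, 74.8, 232, 128 and 214 FPKM in RNAi, against 96.6, 147 and 128 FPKM in WT. The WT range lay inside the RNAi range, in which replicates 4 and 6 were high and replicates 2 and 3 low. Its neighbour in identifier number, Gh_A10G1906 (KCS19), had 30.3 and 24.9 FPKM in RNAi replicates 4 and 6, and 17.9, 8.55 and 18.5 FPKM in RNAi replicates 2, 3 and 5. Gh_D06G2376 (KCS19) had 22.5 FPKM in RNAi replicate 4, and 1.23 to 4.36 FPKM in the other RNAi libraries. These KCS19 genes were named after their values were seen.

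The sum of KCS2 ran the other way, at 2197, 2271 and 2053 FPKM in RNAi replicates 2, 3 and 5, and 1399 and 1624 FPKM in RNAi replicates 4 and 6. Over the 50 tested genes the median SD of log2(FPKM + 1) between libraries was 0.23 in RNAi and 0.22 in WT, against 0.23 in RNAi and 0.21 in WT over all tested genes. RNAi replicate 4 was the lowest RNAi library for 15 of the 50 genes (30.0%), against 26.4% of all tested genes.

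**Figure D4:**
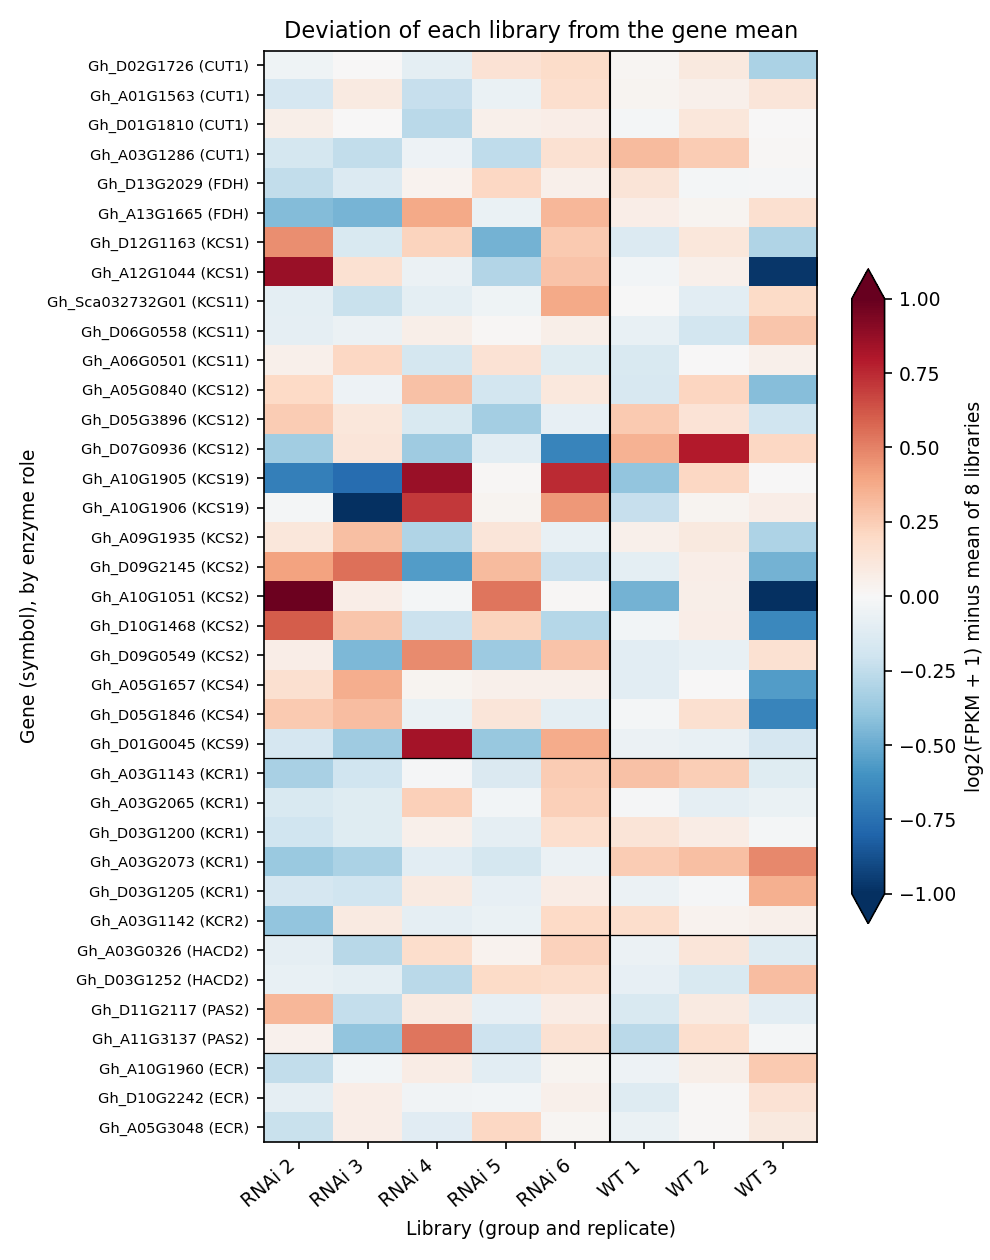
Deviation of log2(FPKM + 1) in each library from the gene's mean over the 8 libraries, for the 37 elongation genes that average at least 10 FPKM, RNAi replicates on the left and WT replicates on the right of the vertical line; horizontal lines part the enzyme roles, and colours end at -1 and 1. Red cells of KCS19 Gh_A10G1905 in RNAi replicates 4 and 6 (232 and 214 FPKM) stand beside blue ones in RNAi replicates 2 and 3 (78.9 and 74.8 FPKM), and KCR1 Gh_A03G2073 is blue in RNAi and red in WT.

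Cotton is a tetraploid with an A and a D subgenome, and the letter in each identifier gives the subgenome. The 35 elongation genes on A chromosomes held 53.0% ± 2.24 of the summed FPKM in RNAi (SD, n = 5) and 55.0% ± 0.487 in WT (SD, n = 3). The 34 genes on D chromosomes held 46.1% ± 2.29 in RNAi and 44.0% ± 0.615 in WT, and 8 genes lay on scaffolds. A tested A gene and a tested D gene of the same symbol on chromosomes of the same number could be paired in 12 cases, by symbol and number only and where each side had 1 such gene. The A gene was above the D gene in every library in 4 pairs, below it in every library in 5, and the order varied in 3. Near-identical copies share reads, so the split between them is uncertain.

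The widest gap in WT libraries was between the KCS12 genes Gh_A07G0864 and Gh_D07G0936. On the log2(FPKM + 1) scale the A gene minus the D gene was -3.60 to -1.21 in RNAi and -4.28 to -3.71 in WT. In RNAi it averaged -2.56, and that of the KCS12 genes Gh_A05G0840 and Gh_D05G3896 averaged 2.55. The A07 and D07 pair was the 1 of the 12 in which the groups did not overlap, a difference that was not tested. The share of such pairs over the whole table was not taken. Its A gene was low, at 0.970 to 3.26 FPKM in WT, and the -1.21 came from RNAi replicate 2, where that gene stood apart. The groups did not overlap for its D gene alone either. For KCS2 on chromosome number 10, Gh_A10G1051 minus Gh_D10G1468 was positive in 4 of 5 RNAi libraries and negative in 3 of 3 WT libraries, and ranged from -0.24 to 0.34 in RNAi and from -0.55 to -0.05 in WT. For CUT1, Gh_A01G1563 minus Gh_D01G1810 was -0.02 to 0.31 in RNAi and 0.15 to 0.33 in WT.

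**Figure D5:**
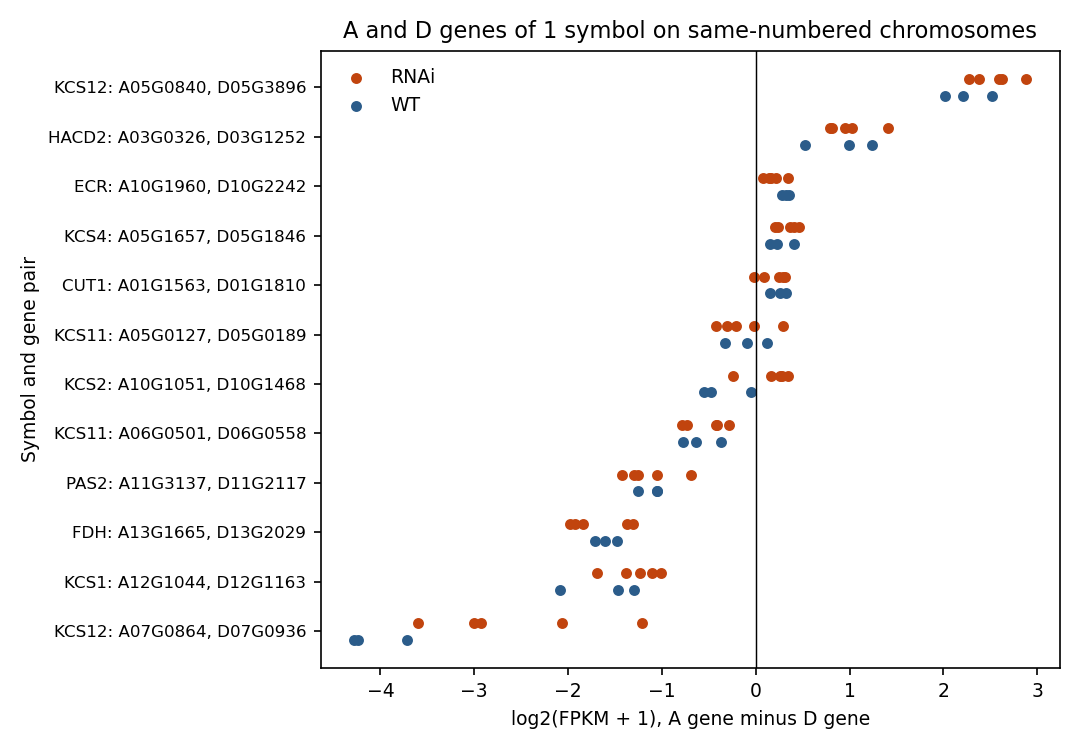
Difference of log2(FPKM + 1), A gene minus D gene, for the 12 pairs of elongation genes with the same symbol on chromosomes of the same number; each point is a library, RNAi above WT within each pair. The pair of KCS12 genes on A07 and D07 is the one with separate ranges (-3.60 to -1.21 in RNAi, -4.28 to -3.71 in WT).

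The 27 genes that were not tested were all condensing enzymes by symbol. Those below the filter averaged at most 1.13 FPKM over the 8 libraries and were mostly KCS19 and KCS4 genes, with 5 and 4 members. The highest of them, Gh_A06G1558 (KCS19), had 5.06 FPKM in RNAi replicate 4, and 0.428 to 0.893 FPKM in the other RNAi libraries and 0.337 to 0.636 FPKM in WT. The 11 genes at 0 in every library carried the symbols CUT1 (3 genes), KCS12, KCS19 and FDH (2 each) and KCS1 and KCS16 (1 each). KCS16 had no other gene.

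Genes that supply or use the products of elongation were taken from lists of symbols, and no gene of them passed. None of the 62 tested genes of acyl-CoA supply (acyl-ACP thioesterases, long-chain acyl-CoA synthetases, acyl-CoA binding proteins and others) passed, with 2 at an unadjusted p under 0.05. None of 33 wax genes passed, with 4 at an unadjusted p under 0.05, none of 42 sphingolipid genes, with 3, and none of 33 cutin genes, with 3. Over all tested genes this share was 5.86%. The median log2 fold change of these lists was -0.03, -0.10, 0.09 and 0.11, against -0.02 over all tested genes. The lowest adjusted p among them was that of Gh_D04G1245 (DCR, an acyltransferase of cutin synthesis), at 22.6, 2.98, 4.27, 2.14 and 5.47 FPKM in RNAi, against 0.224, 0.253 and 0.849 FPKM in WT. All RNAi libraries lay above all WT libraries, with RNAi replicate 2 far above the rest (log2 fold change 2.16 ± 0.56 SE, limma adjusted p = 0.444). Gh_D10G1008 (CYP96A15, an alkane hydroxylase of wax synthesis) averaged 11.7 ± 2.62 FPKM in RNAi (SD, n = 5) and 19.7 ± 6.08 FPKM in WT (SD, n = 3). Gh_A05G1069 (FATB1, a thioesterase that releases saturated fatty acids) averaged 4.67 ± 1.64 FPKM in RNAi and 9.40 ± 2.78 FPKM in WT. The groups overlapped for both (limma adjusted p = 0.723 and 0.657). CYP96A15 Gh_A09G0267 was also lower in RNAi, at means of 0.643 against 1.60 FPKM. More abundant genes of both symbols had higher means in RNAi, with overlap. These were CYP96A15 Gh_A05G3436 (945 against 870 FPKM) and FATB1 Gh_A06G0514 (42.0 against 34.4 FPKM) and Gh_D08G2504 (78.5 against 72.9 FPKM).

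Elongases of the ELO type, known from yeast, carry the symbol HOS3 in the table and were outside the rule. Of 15 such genes 7 were tested and none passed, with 1 at an unadjusted p under 0.05. Gh_D01G0004 (HOS3) carried nearly all of their transcript, with 1006, 918, 1276, 935 and 1175 FPKM in RNAi, against 903, 1194 and 1063 FPKM in WT. The groups overlapped (log2 fold change 0.01 ± 0.14 SE, limma adjusted p = 0.991), and its level was in the range of the single CUT1 genes.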

How the data were processed

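Of 9 labelled samples, 8 libraries (5 RNAi, 3 WT) were analysed, with columns matched to samples by group and replicate number. The authors deposited FPKM per gene. The submitters' processing notes list FastQC, HISAT2 and DESeq 1.10.1, and give no roles. The build, annotation, counter, strand setting and treatment of reads shared by near-identical copies were not given in the sources used here. A gene was tested where 3 or more libraries reached 1 FPKM (34051 genes). limma 3.58.1 (R 4.3.3) was fitted to log2(FPKM + 1) over all of them, with an intensity trend, two-sided p-values and Benjamini-Hochberg adjustment, and the added 1 shrinks changes near 0 FPKM. Simulated data with known changes were used to test the script. The members and lists were chosen with earlier results of these data known, and 2 marker lists were narrowed after the symbols were seen. Genes named were the 12 of highest mean, the 10 of smallest p and the 2 highest of each enzyme role (22 in all). Further members are given to account for the list, or as named after their values were seen. Relative depth came from ratios between low values of the same gene (under 0.5 FPKM in both libraries). Of these, 49.5% to 70.3% lay within 0.01 on the log2 scale of a ratio of whole reads (at most 4), and 0.321% to 1.33% did so when the constant was shifted. Alternatives were other pseudocounts, filters and scalings, array weights, no trend, a replicate block and each library left out.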

Additional observations from a re-analysis of the deposited data

Results flagged for a closer look

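In 50 groups of RNAi values, taken from among the genes and sums given above, a library was set apart from the other 4 in 6. Chance would flag about 1 group in 20, and part of the genes were given because a library stood out. Gh_A07G0864 (KCS12) had 9.91 FPKM in RNAi replicate 2, against 1.89 to 3.87 FPKM in the other RNAi libraries. Without RNAi replicate 2 its log2 fold change was 0.48, against 0.79 with all libraries. Gh_D01G1810 (CUT1) had 826 FPKM in RNAi replicate 4, the shallowest library, against 1003 to 1044 FPKM in the other RNAi libraries. Without RNAi replicate 4 its log2 fold change was 0.015, against -0.05 with all libraries. RNAi replicate 4 also stood apart in Gh_D06G2376 (KCS19), at 22.5 FPKM against 1.23 to 4.36 FPKM in the other RNAi libraries, and in Gh_A06G1558 (KCS19), at 5.06 FPKM against 0.428 to 0.893 FPKM. RNAi replicate 2 stood apart in Gh_D04G1245 (DCR), at 22.6 FPKM against 2.14 to 5.47 FPKM in the other RNAi libraries. RNAi replicate 5 stood apart in CESA8, at 102 FPKM against 1.08 to 18.9 FPKM in the other RNAi libraries.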

How the results depend on the processing

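Of 17 alternative fits, the replicate block alone called an elongation gene. It used replicates 2 and 3 of both groups (4 libraries) with the number as a block, and called 1 elongation gene higher in RNAi (Gh_A10G1051, KCS2, log2 fold change 1.08, limma adjusted p = 0.0407), 1 gene of the other lipid lists and 311 genes of the whole table. The labels state no pairing by number, and deviations of same-numbered libraries correlated at 0.35 for number 2 and -0.093 for number 3. The 57 genes called in the whole table became 88 with array weights, 36 with a filter at 5 FPKM and 35 with a pseudocount of 0.01. They lay between 33 (without WT replicate 2 or WT replicate 3) and 58 with a library left out, with 34 without RNAi replicate 5 and 37 without RNAi replicate 2. The share of CUT1 was 44.6% without FDH. Of 372 log2 fold changes of the 22 named genes, 13 changed sign, in 8 genes near 0. These were Gh_A03G2065 (-0.062, block), Gh_D11G2117 (-0.021, array weights), Gh_D10G2242 (0.019, array weights) and Gh_A11G3137 (-0.12 with array weights, -0.25 with the block). With a library left out, signs turned within ranges of -0.062 to 0.17 for Gh_A11G3137 (without RNAi replicate 4 or WT replicate 1), -0.086 to 0.050 for Gh_D10G2242 (without RNAi replicate 2 or WT replicate 3), -0.041 to 0.17 for Gh_A09G1935 and -0.022 to 0.18 for Gh_D02G1726 (both without WT replicate 3), -0.074 to 0.015 for Gh_D01G1810 (without RNAi replicate 4) and -0.11 to 0.0063 for Gh_D13G2029 (without RNAi replicate 2). The cause was not tested. Gh_A07G0864 and Gh_D02G1574 gave no value with the filter at 5 FPKM. The ratio of summed elongation FPKM lay between 0.958 (without WT replicate 3) and 1.03 (without WT replicate 2). Depth limits genes under a few FPKM, most in RNAi replicate 4.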

Other observations

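RNAi replicates 4 and 6, the high libraries of KCS19, were also high for 3 other genes, chosen after their values were seen. Gh_A13G1665 (FDH) had 169.7 and 164 FPKM in RNAi replicates 4 and 6, and 96.0, 93.9 and 124 FPKM in RNAi replicates 2, 3 and 5. Gh_A11G0100 (DCR), the most abundant gene of the cutin list, had 825 and 789 FPKM in RNAi replicates 4 and 6, and 376, 399.7 and 477 FPKM in RNAi replicates 2, 3 and 5. Gh_D01G0004 (HOS3) had 1276 and 1175 FPKM in RNAi replicates 4 and 6, and 1006, 918 and 935 FPKM in RNAi replicates 2, 3 and 5. In WT the same 3 genes had 133 to 146, 579 to 798 and 903 to 1194 FPKM.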
